A study of Ovis aries with 18 samples.

Results

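A group of 424 mature sequences that miRDeep, a program that looks for miRNA hairpins under small RNA reads, predicted from the sheep genome and that carry the name of no known miRNA was described in sheep testes. Members were chosen by their counts. Each is named by its chromosome and a number, followed by mature or star for the strand of the predicted hairpin, as the table labels it. A sequence was taken as a member when it had at least 10 counts in 5 or more of the 9 miRNA libraries. The minimum kept 457 of the 2298 predicted entries without a name, and adding up entries of equal sequence left 424 sequences. The whole miRNA table listed 7146 entries, of which 937 passed the same minimum. Small RNA and mRNA had been sequenced from the left testis of each of 9 rams of the Small Tail Han breed, with 3 different rams aged 2 months, 3 aged 6 months and 3 aged 12 months. Each ram gave 1 miRNA library and 1 mRNA library, and the study compared ages across sexual development.

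MicroRNAs are cut from hairpin precursors by Drosha and Dicer, leave a duplex of mature and star strands, and pair with mRNAs mainly through the seed, bases 2 to 8. In the testis they share the small RNA pool with piRNAs, which are longer, often begin with uridine (written T here) and are bound by PIWI proteins in spermatogenic cells. A prediction from a genome is no proof of a miRNA, because fragments of ribosomal RNA, transfer RNA, mRNA and piRNAs can fall on stretches that fold back. Round spermatids are the haploid cells that follow meiosis, and a testis gains them at puberty.

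The sequences below carry the results, with the seed in capitals. The first 7 are members of high level whose fitted change over the range of spermatid content, described below, was within 2-fold, though single rams differed by up to 18.9-fold in the last of them, a sequence close to miR-145.
chr4_11212_mature: gAGGCGGGggtcggctc
chr5_11774_mature: gGAATACTgggtgctgtaggct
chr1_1830_mature: aCTCTTAGtggtggatcac
chr5_11800_mature: tACTTGGAtgggagaccgcctg
chr2_5603_mature: aGCGCCGCgggagcctc
chr7_15018_mature: aAAACACGaacaaacttttcg
chr15_26933_mature: gTCCAGTTtcccaggaatcca
The next 8 were high in rams rich in spermatid mRNAs, and the first 3 of them were also among the 10 members of highest level.
chr3_7742_mature: tACCTGTTcctcctggcat
chr3_7741_star: aGTGAGGGgagaatctggaag
chr2_3356_mature: tAGCTAGTaagtgtcagag
chr7_15206_mature: tCCCAAACtcaagacct
chr10_18714_mature: aGGCACTCacaaataaa
chr1_1178_mature: gATATCTCtggaaacta
chr5_11712_mature: aGGGCTTCactgaagaat
chr9_17774_mature: tGAAACTGttctttatt
The last 5 were low in those rams and include both strands of 2 predicted hairpins.
chr17_29619_mature: gATGAGGCtcagcgagccctg
chr17_29619_star: aGGGCTCGctgagcctcatct
chr13_23057_mature: aTCTCAGGttcgtcagcccgca
chrx_42680_mature: cCTCAGTCagccttgtggatg
chrx_42680_star: aTCTAGAGgactgactgaaat

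Library totals ranged from 295282 to 5710499 miRNA counts. The mRNA libraries did not all match their ages. Spermatid content was read from a score, the mean log2 CPM (counts scaled to library size) of the 15 listed of 20 spermatid markers, such as TNP1, ODF1 and ACRV1. The score was 8.71, 1.42 and 4.22 at 2 months (replicates 1, 2 and 3, an order kept below), 8.91, 9.61 and 8.96 at 6 months, and 8.88, 8.95 and 1.31 at 12 months. Thus 12-month replicate 3 went against its age label, its summed spermatid CPM being 68.9 against 59.8 in 2-month replicate 2, 356 in 2-month replicate 3 and 8683 to 16417 in the other 6 rams. 2-month replicate 1 stood apart from its age too, with a score of 8.71 and 8683 CPM, close to the rams of 6 months. With 3 rams an age, the exact permutation test cannot pass 0.05, so it does not settle whether ages differed in score. The 3 scores at 2 months lay below all 3 at 6 months, while 12 months overlapped with both. The means were 4.78 ± 3.68 at 2 months, 9.16 ± 0.395 at 6 months and 6.38 ± 4.40 at 12 months (SD, n = 3; two-sided exact permutation p = 0.1 for 2 vs. 6, 0.2 for 6 vs. 12 and 0.6 for 2 vs. 12 months, with 0.1 the smallest possible). In bulk tissue, fewer cells of a type and less RNA per cell cannot be told apart. Of 8 Sertoli cell markers, 8 were highest in 2-month replicate 2. In 12-month replicate 1 all 5 muscle markers (summed CPM 5592 against 309 to 1379 elsewhere) and 3 of the 5 listed epididymis markers were highest. No sequence was available for other classes of small RNA, so the share of ribosomal, transfer RNA or piRNA fragments among the members was not tested.

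The members were short. In all, 148 of 424 (34.9%) were 17 nt long and 67.5% were 17 to 19 nt long, with a median of 18 nt and a range from 12 to 29 nt. Among 108 known sheep sequences past the same minimum 2.78% were 17 to 19 nt, 90.7% were 21 to 23 nt and the median was 22 nt. Predicted sequences that had a named match lay between, with 13.4% of 217 at 17 to 19 nt and 62.7% at 21 to 23 nt. The length usual for miRNAs, 21 to 23 nt, was found in 19.1% of members, and 13 members had 24 nt or more, the lengths nearest to piRNAs. These lengths are those of the sequences in the deposited table and not of the reads.

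**Figure D1:**
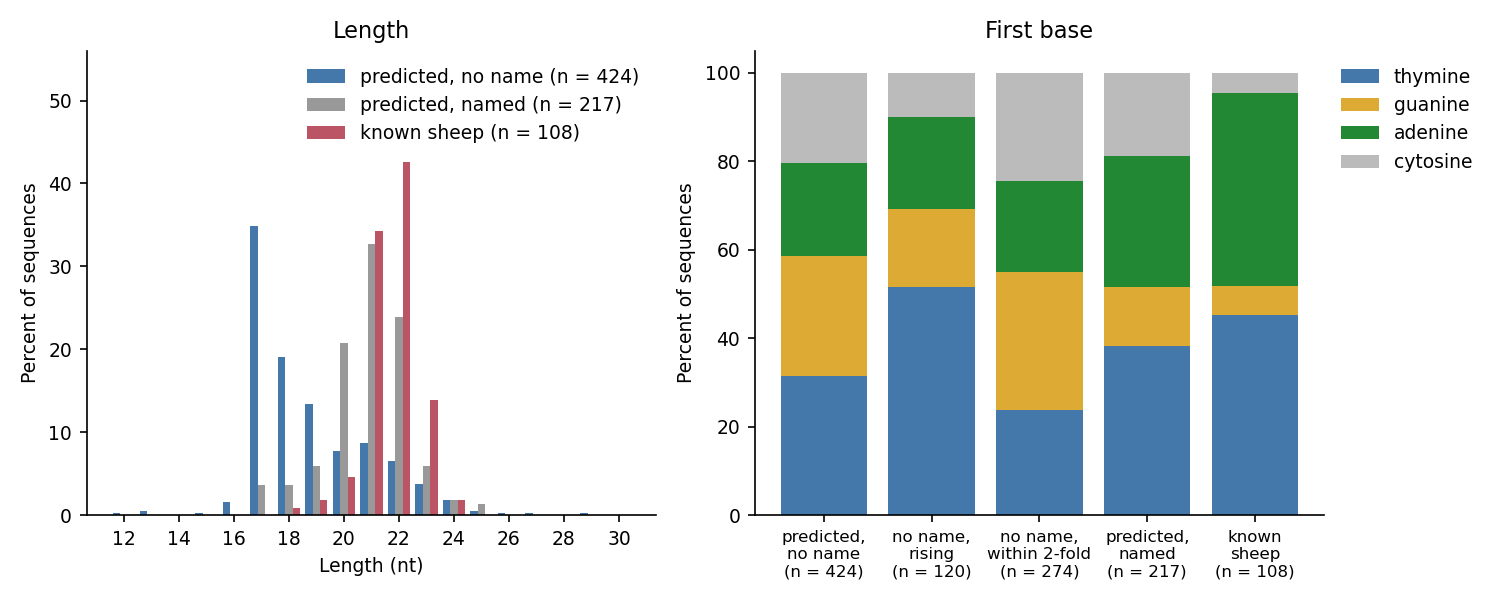
Left, percent of sequences at each length in nt for members, predicted sequences with a named match and known sheep miRNAs past the same count minimum. Right, percent by first base, also for members rising or within 2-fold over the spermatid score; members peak at 17 nt (34.9%) and rising members begin with thymine in 51.7%.

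The first base was T in 134 members (31.6%), G in 115 (27.1%), A in 89 and C in 86 (20.3%). Known sheep miRNAs began with T in 45.4% and A in 43.5%, and with G in 6.48%. Weighted by mean level, T-first members made up 25.5% of the members' counts and G-first members 36.7%, since the member of highest level starts with G. The median GC content was 55.6% against 42.9% in known sheep miRNAs, and 88 members had at least 80% GC, which none of the 108 known sequences had. A run of 5 or more equal bases stood in 81 members. The 217 predicted sequences with a named match began with T in 38.2%, G in 13.4% and C in 18.9%, and their median GC was 50%. Thus the members differed in length, first base and GC from known miRNAs, and less from predicted sequences with a named match. No test was made over sequences because they are not replicates.

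Few members resembled a miRNA with a name. Only 3 of 424 (0.708%) carried the seed of a known sheep miRNA: chr7_14612_star that of miR-665-5p, chr5_11591_mature that of miR-134-5p and chr2_5483_mature that of miR-16b. Of the 217 predicted sequences with a named match, 7.83% did. Of 420 members of at least 16 nt, 10 lay 1 edit (a changed, missing or added base) from a named sequence of the table, 16 lay 2 edits away and 0 were identical. The closest included chr3_7479_mature, 1 edit from rno-miR-202-5p, a miRNA known from gonads, and chr10_19307_mature, 1 edit from miR-142-5p, which is known from blood cells.
chr3_7479_mature: tTCCTATGcatatattt
rno-miR-202-5p: tTCCTATGcatatacttct
chr10_19307_mature: cATAAAAGtagaaagca
rno-miR-142-5p: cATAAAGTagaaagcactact
Reads with a changed base or a counting error can also give such neighbours, which was not tested. The level of chr3_7479_mature was 848, 2412 and 1998 CPM at 2 months, 2151, 1903 and 633 CPM at 6 months and 234, 1170 and 2002 CPM at 12 months. It was lowest in 12-month replicate 1, the library high in muscle markers.

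Many members overlapped each other. A stretch of 13 bases on either strand was shared by 94 members, which fell into 33 groups of 2 to 8 sequences, the largest of them G-rich runs from several chromosomes. Among the members 35 were listed at more than 1 place, up to 5, and the counts of their copies differed at a chi-square p under 0.05 in 6 of the 29 sets compared, so the counts of single copies are uncertain. The members lay on 27 chromosomes, most on chromosome 3 with 40, and 30 on X.

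In 72 predicted hairpins both strands were members. The strand labelled mature had the higher mean level in 57 of them, and the median ratio of mature to star was 3.81 over the 72. The hairpins were predicted from these same reads, and how the labels were given was not examined. The labels may therefore rest on the same counts, and the ratio does not show a strand preference. Counts of equal sequences were added first, so 1 mature sequence can stand in several hairpins, which may raise some ratios. Thus chr2_3860_mature, at 914 CPM, was set against the star strands of chr2_3860, chr6_13610 and chr6_13609. In none of the 72 were the strands fully complementary over the shorter strand, and the median was 7 edits away. The closest was chr17_29619, at 1 edit. Its strands also had nearly equal levels in every ram, from 309 and 327 CPM in 6-month replicate 2 to 1360 and 1342 CPM in 12-month replicate 3.

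The members made up 20.3, 12.0 and 14.3% of all miRNA counts at 2 months, 13.9, 11.1 and 17.01% at 6 months and 8.30, 16.2 and 11.7% at 12 months. The ages overlapped, with 15.5% ± 4.26, 14.0% ± 2.95 and 12.1% ± 3.95 (SD, n = 3). The two-sided exact permutation p was 0.6 for 2 vs. 6, 0.5 for 6 vs. 12 and 0.4 for 2 vs. 12 months, in a test that cannot go below 0.1. Levels below are CPM scaled by the upper quartile of each library. The mean level over the 9 libraries ran from 6.39 to 18473 CPM with a median of 47.5. Only 22 members exceeded 1000 CPM, 134 exceeded 100 CPM and 218 lay under 50 CPM. The 3 highest held 34.2% and the 10 highest 53.3% of the members' summed level.

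The 3 highest members spanned less between rams than the median member. chr5_11774_mature had 16517, 14467 and 12479 CPM at 2 months, 11854, 13021 and 12857 CPM at 6 months and 13304, 14432 and 19194 CPM at 12 months, a 1.62-fold span. chr1_1830_mature spanned 2.06-fold, from 8863 CPM in 6-month replicate 2 to 18240 CPM in 2-month replicate 1. chr4_11212_mature spanned 3.26-fold, from 8130 to 26484 CPM. From general knowledge the letters of chr5_11774_mature and chr5_11800_mature look like stretches of a small ribosomal RNA of the large subunit, and those of chr1_1830_mature like another; they were matched to no reference here. The least variable of the 332 members with more than 3 counts in every library was chr6_13610_star, from 76.0 to 109 CPM, a 1.43-fold span against a median of 3.68-fold.

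Other members of high level varied widely. chr3_7742_mature had 8860, 280 and 1987 CPM at 2 months, 6633, 5233 and 12576 CPM at 6 months and 4600, 13645 and 650 CPM at 12 months. Its partner on a second listed hairpin, chr3_7741_star, had 4966, 253 and 2127 CPM, then 6241, 2023 and 8559 CPM, then 3208, 9592 and 408 CPM. chr2_3356_mature had 5340, 152 and 1419 CPM, then 4913, 2400 and 7710 CPM, then 1762, 6199 and 360 CPM. In the 3 sequences the lowest libraries were 2-month replicate 2 and 12-month replicate 3, the rams with almost no spermatid mRNA.

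**Figure D2:**
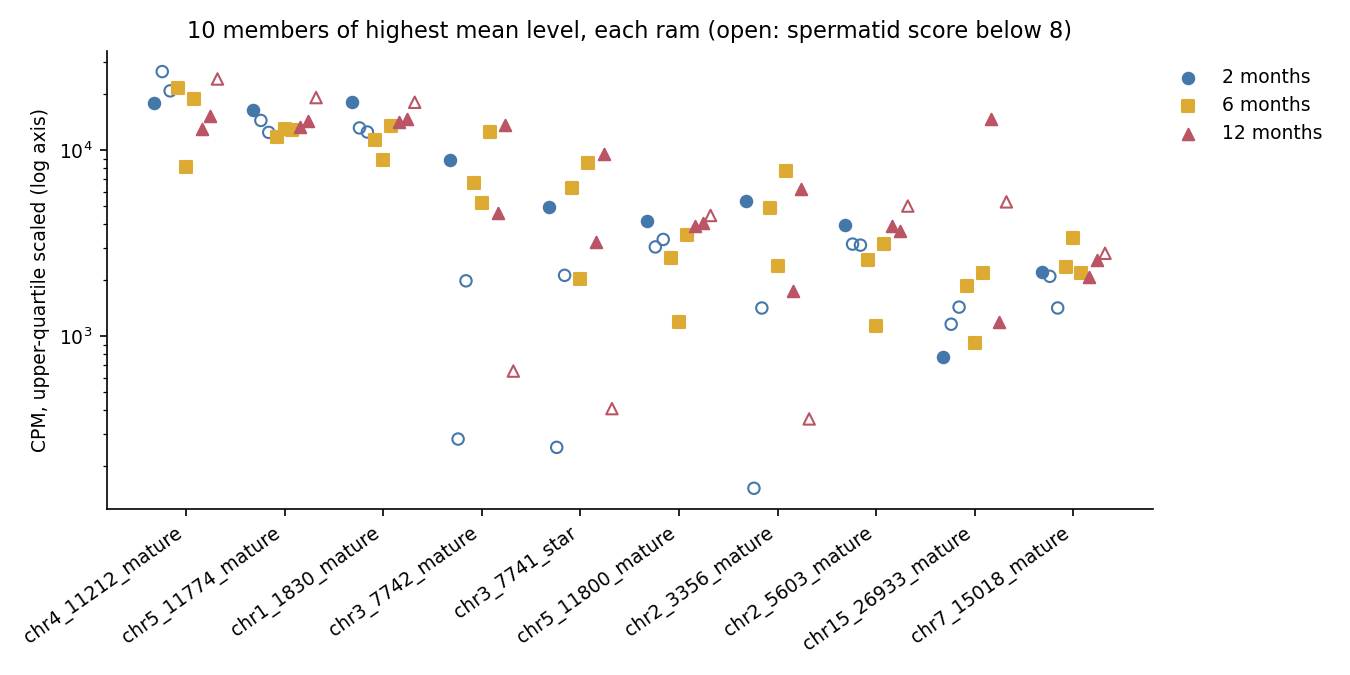
Level in CPM (upper-quartile scaled, log axis) of the 10 members of highest mean level, 1 point per ram, with age as colour and shape and open points for the 3 rams of spermatid score below 8. chr3_7742_mature, chr3_7741_star and chr2_3356_mature are lowest in 2 of the open points, while chr5_11774_mature spans 1.62-fold.

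The relation to spermatid content was described by a slope of each level on the spermatid score of the same ram, fitted with edgeR to all 9 libraries. The 9 scores formed clusters, since the largest gap took 54.1% of their range, so slopes are given without a p-value and as the fitted log2 change over the whole range of 8.31 log2 units. Rising and falling mean here a fitted change past 2-fold. Of 408 members with enough counts for the fit, 120 were rising and 14 falling, where 22.5% of all 948 fitted miRNAs were rising, 7.07% were falling and 29.5% were either. The median change was -0.01 in members and -0.08 in all. Among fitted known sheep miRNAs 7 of 112 were rising and 16 falling, and among predicted sequences with a named match 28 and 27 of 252. Among those with human, mouse or rat names it was 30 and 6 of 128, and among all 540 fitted miRNAs outside the members 93 and 53. The 540 include predicted sequences without a name that missed the minimum, which were not counted apart. Rising is thus not particular to the members.

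The count minimum itself favours rising members: a sequence found only in the 6 rams of score above 8 could pass it, one found only in the other 3 could not. With the minimum asked of all 9 libraries, 59 of 227 were rising and 7 falling. The 3 rams of low score also had the 3 largest miRNA totals, so depth and spermatid content cannot be told apart by design. With every library thinned to the smallest total, 82 of 276 members in the fit were rising and 10 falling. Of the 120 earlier rising members only 81 were still in that fit, and 80 of them were rising again. With the log2 total beside the score, 126 were rising and 46 falling, and 85 of the 120 stayed past 2-fold. The 120 were chosen by their slope in these same libraries, so their return in such refits is a description and does not separate depth from spermatid content. Sertoli markers, high where spermatid markers were low, were not separated from the score either. Summed spermatocyte markers stood at 349 CPM in 2-month replicate 2 and 675 CPM in 12-month replicate 3. Elsewhere they had 695 to 1345 CPM. In 2 of these 10 markers the 2 rams were the lowest, and spermatocyte content was not separated from the score.

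Members with the strongest fits, by the adjusted p-value of the slope and then by the size of the change, are given first. That p-value serves only to order them. The SE of a fitted change was derived from the same test statistic, so the clustering of the scores limits it too. chr7_15206_mature had 65.8, 0.41 and 4.09 CPM at 2 months, 60.3, 152 and 109 CPM at 6 months and 34.4, 73.1 and 0.86 CPM at 12 months. The low values rest on 1 count in 2-month replicate 2 and 4 counts in 12-month replicate 3, and the fitted change was 7.33 ± 0.63 (SE, log2). chr10_18714_mature had 123, 2.45 and 9.42 CPM, then 141, 275 and 159 CPM, then 40.1, 188 and 1.28 CPM, a fitted change of 6.91 ± 0.68. In both, the rams of score above 8 did not overlap with the other 3, and 2-month replicate 3 stood between.

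chr5_11712_mature (6.70 ± 0.85), chr1_1178_mature (5.34 ± 0.60) and chr9_17774_mature (4.95 ± 0.77) had the same order, with mean levels of 23.2, 18.8 and 19.8 CPM. Among members of high level the change was 4.40 ± 0.67 for chr3_7742_mature, 4.26 ± 0.79 for chr2_3356_mature and 4.08 ± 0.80 for chr3_7741_star. With the log2 total beside the score these were 2.78, 1.83 and 2.05, and without the 2 rams of lowest score 3.45, 2.75 and 2.21. For chr7_15206_mature the same fits gave 6.23 and 7.46, and for chr10_18714_mature 5.07 and 6.98. The widest span among members with more than 3 counts in every library was that of chr3_6631_mature, from 2.04 CPM in 2-month replicate 2 to 914 CPM in 6-month replicate 3.

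Falling members changed less. chr17_29619_mature had 474, 1008 and 629 CPM at 2 months, 620, 309 and 455 CPM at 6 months and 385, 596 and 1360 CPM at 12 months, a fitted change of -1.39 ± 0.35. The star strand followed it at -1.34 ± 0.34. chrx_42680_mature had 187, 1016 and 590 CPM, then 455, 82.0 and 134 CPM, then 121, 454 and 548 CPM, at -1.98 ± 0.62, and its star strand stood at -1.78 ± 0.46. chr13_23057_mature, at -1.50 ± 0.43, was highest in 12-month replicate 3 with 623 CPM. In all 5 the 3 rams of low score were the 3 highest, with the narrowest gap in chr17_29619_mature, 629 against 620 CPM.

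**Figure D3:**
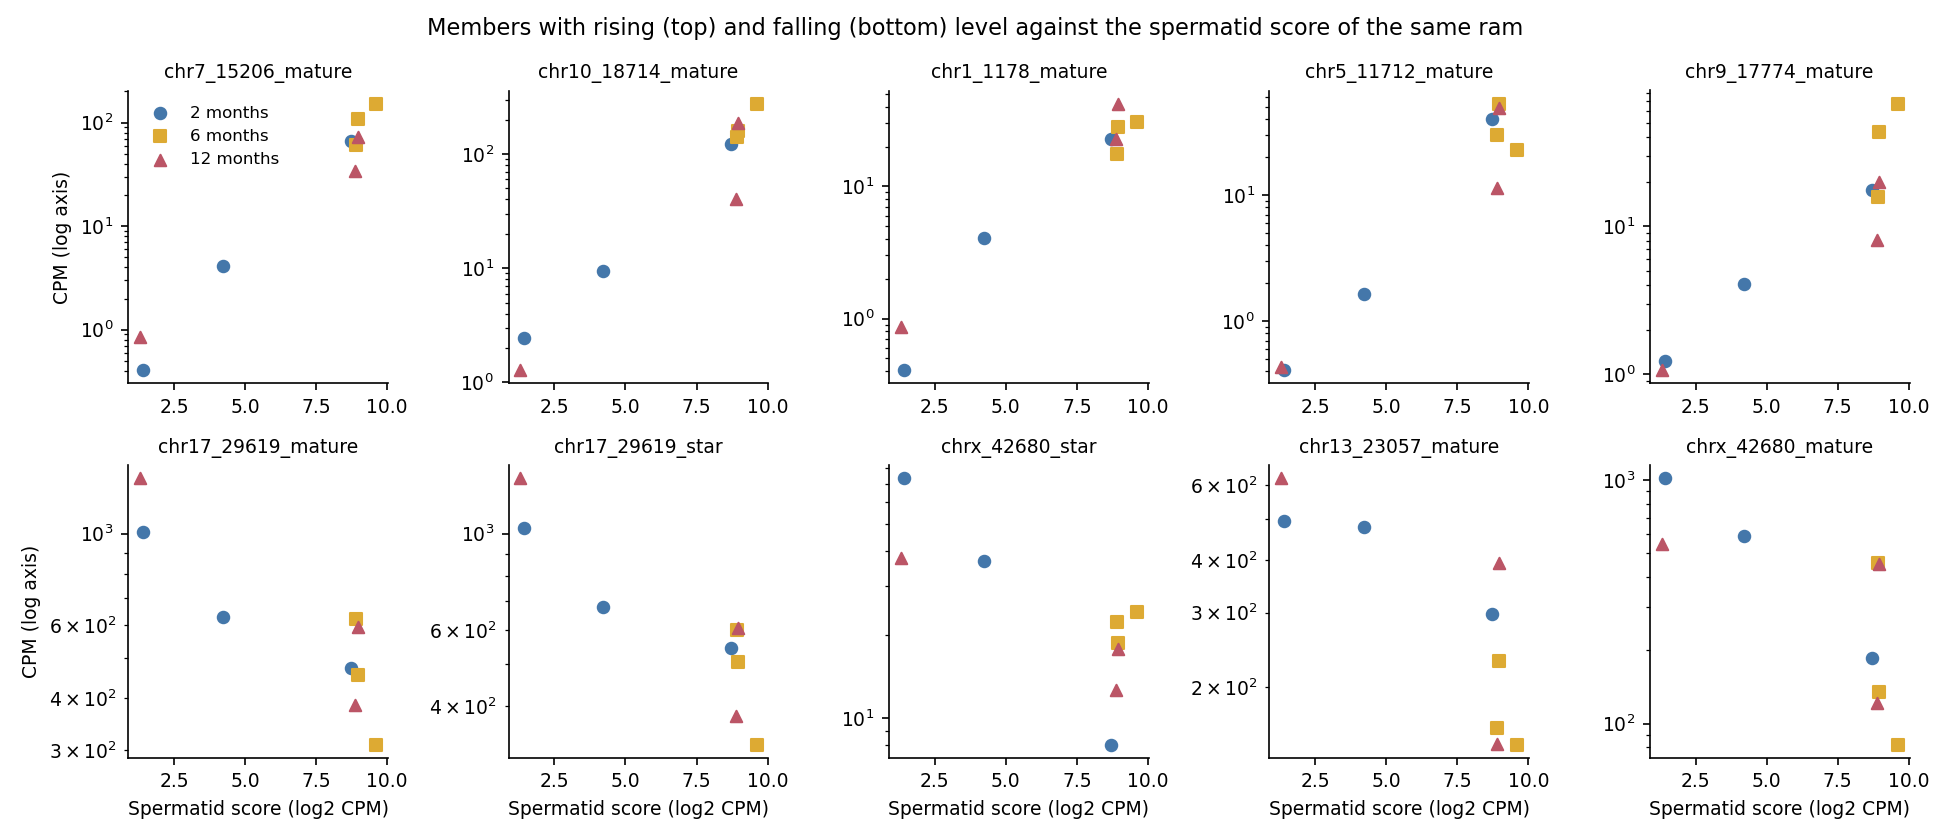
Level in CPM (log axis) of the 5 rising (top) and 5 falling (bottom) members with the strongest fits against the spermatid score of the same ram in log2 CPM, 1 point per ram, age as colour and shape. For chr7_15206_mature the 6 rams of score above 8 lie between 34.4 and 152 CPM and the 2 of lowest score below 1 CPM.

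Rising members stood apart in first base. Of the T-first members 62 of 129 (48.1%) were rising, of the A-first 25 of 86 (29.1%), of the G-first 21 of 111 (18.9%) and of the C-first 12 of 82 (14.6%). Among miRNAs with a name, 28 of 210 T-first (13.3%) and 37 of 282 others (13.1%) were rising. The share in T-first members exceeded that in other members in every alternative fit and in each fit without 1 ram, with 37.3 to 50.4% against 15.9 to 28.7%. With 10 counts in all 9 libraries it was 24 of 58 (41.4%) against 35 of 169 (20.7%). An A at position 10 is also known from piRNAs. Of the members with A there, 31 of 83 (37.3%) were rising, and of those with T there 36 of 94 (38.3%).

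GC content went along with the first base. Under 60% GC, 59 of 100 T-first members and 48 of 134 others were rising, whereas from 60% GC on it was 3 of 29 and 10 of 145. The median GC was 46.0% in rising members and 64.7% in those within 2-fold. The share of 17 to 19 nt was similar, with 81 of the 120 rising members (67.5%) and 69.3% of those within 2-fold. Single lengths within this range differed: 17 nt made up 26.7% of rising members and 40.5% of those within 2-fold. Of members of 17 nt 32 of 145 (22.1%) were rising, of 18 nt 33 of 79 (41.8%) and of 19 nt 16 of 52 (30.8%). At 20, 21, 22 and 23 nt it was 22.6, 34.3, 29.6 and 40%. Among members of 17 to 19 nt 44 of 84 T-first and 37 of 192 others were rising, and from 20 nt on 18 of 45 and 19 of 76. Only 4 of the 120 had 24 nt or more, such as chr15_26292_mature with a change of 4.26 ± 0.81.

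**Figure D4:**
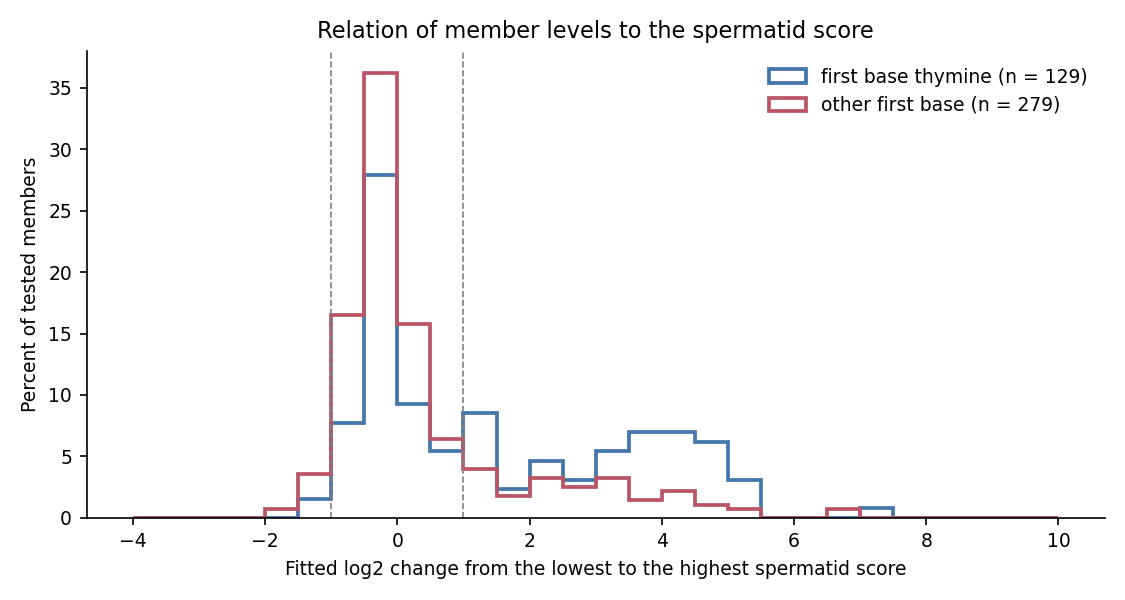
Fitted log2 change of the 408 members in the fit from the lowest to the highest spermatid score, as percent of 129 members with first base thymine and of 279 others in bins of 0.5. Dashed lines mark 2-fold; 48.1% of the thymine-first members and 20.8% of the others lie above the upper line.

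The rising members were not copies of each other. They fell into 115 groups by shared 13-base stretches, and a shared seed was rare. An exception was the seed GTAAAAT, found in chr18_32040_mature (2.43 log2), chr4_10331_mature (3.81) and chr10_19246_mature (5.02), of which the last pair differ only in length and overlap by their first 17 bases. Of 66 hairpins with both strands in the fit, both strands were rising in 13, both falling in 3 and both within 2-fold in 41, while 9 had 1 strand past 2-fold and 0 went opposite ways. Thus chr7_15440_mature (3280, 106 and 961 CPM at 2 months, then 2981, 1826 and 3013 CPM, then 1514, 4346 and 266 CPM) and its star strand had changes of 3.96 ± 0.68 and 4.30 ± 0.88. Over all 408 members 29.4% were rising and 3.43% falling, so opposite ways would be rare in any case. A mature sequence can also stand in several of these hairpins, as chr3_7742_mature does in chr3_7742 and chr3_7741.

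2-month replicate 3, with a score of 4.22, was also left out of the fit. Its counts had served to choose the members, 420 of 424 having at least 10 counts there, which favours high values in this library, so its place is a description. In a fit without this ram 120 members were rising. It stood above both rams of lowest score in 107 of them (89.2%), below all 6 rams of score above 8 in 68, and did both in 59. Of 120 miRNAs outside the members that were rising in the same fit, it stood above both rams of lowest score in 77 (64.2%). The other 2 counts were not taken for miRNAs outside the members. Without 2-month replicate 2, 117 of the 120 rising members remained past 2-fold, without 12-month replicate 3 119, and without both 111. The libraries in these refits had also served to choose the 120. Among all 408 members the 2 lowest libraries were these 2 rams in 87 (21.3%), against 13.6% of the 948 miRNAs, which include the members. The count minimum favours this order in members, so the difference is a description.

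As a share of all miRNA counts, the 120 rising members held 5.74, 0.503 and 1.94% at 2 months, 4.32, 3.23 and 6.72% at 6 months and 1.50, 6.44 and 0.619% at 12 months. The 14 falling members held between 0.0962 and 0.517%. Both sets were chosen by their slope on the score in these same libraries. A low share of rising members in the rams of lowest score follows from that choice. Within the rams of score above 8, 12-month replicate 1 was lowest in rising members at 1.50%, and was the library with the highest muscle and epididymis markers, whose part in this was not tested.

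**Figure D5:**
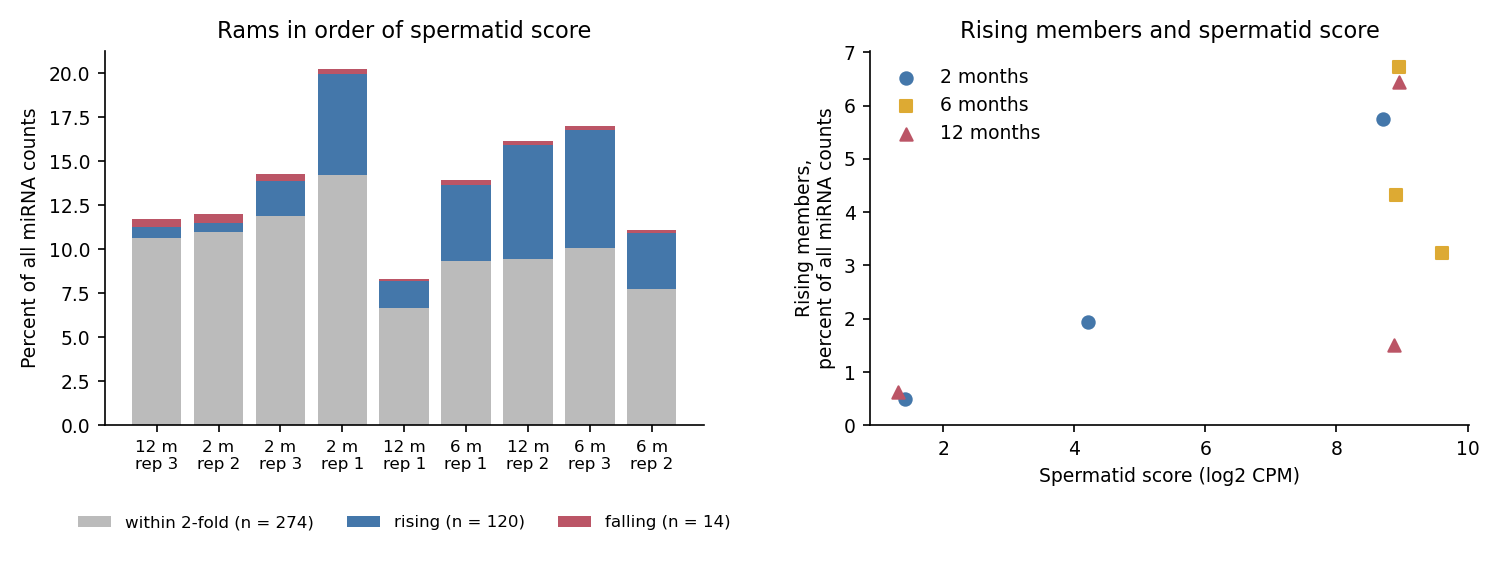
Left, percent of all miRNA counts held by members within 2-fold, rising and falling, with rams ordered by spermatid score from left to right. Right, the share of rising members against the score in log2 CPM. The share runs from 0.503 and 0.619% in the 2 rams of lowest score to 6.72%. Rising members were chosen by their slope on this score, which sets the direction.

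Ages were compared with edgeR's quasi-likelihood test, and a miRNA was called when its adjusted p was below 0.05 and the fold change exceeded 1.5. In 2- *vs.* 6-month-old testes 0 of 408 members were called, where 0% of all 948 miRNAs were, and 46 members passed an unadjusted p of 0.05, where 6.12% of all did. In 6- *vs.* 12-month-old testes 0 were called (0% of all) and 64 passed unadjusted (10.4% of all). In 2- *vs.* 12-month-old testes 0 were called (0% of all) and 8 passed unadjusted (4.96% of all). DESeq2 called 0, 6 and 0 members in the 3 comparisons, where it called 0%, 0.844% and 0.316% of all.

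The members with the smallest p-values for 2 vs. 6 and for 6 vs. 12 months had their lowest means at 6 months. chr3_7509_mature had 187, 147 and 131 CPM at 2 months, 71.4, 72.6 and 65.5 CPM at 6 months and 136, 155 and 190 CPM at 12 months. The 6-month rams did not overlap with the others, yet the log2 change was -1.14 ± 0.29 (SE; edgeR adjusted p = 0.728) for 2 vs. 6 and 1.20 ± 0.30 (edgeR adjusted p = 0.408) for 6 vs. 12 months, while DESeq2 gave an adjusted p of 0.0349 for the latter. chr20_35508_mature had 215, 166 and 173 CPM, then 79.3, 90.0 and 78.0 CPM, then 138, 120 and 200 CPM, a change of -1.16 ± 0.31 for 2 vs. 6 months. chr24_40297_mature (-2.18 ± 0.53) rested on 2 to 3 counts in each 6-month library. For 6 vs. 12 months chr18_31861_star (1.90 ± 0.48) and chr19_33761_mature (1.83 ± 0.47) came next. They too had few counts at 6 months, 9, 8 and 2 in the former and 3, 5 and 3 in the latter.

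DESeq2 called in 6- *vs.* 12-month-old testes, beside chr3_7509_mature, chr18_31861_mature (0.93 log2) and chr11_21007_mature (1.27) as higher at 12 months. It called chr4_11214_mature (-2.56), chrx_42810_mature (-3.13) and chrx_43043_mature (-1.01) as lower. In edgeR these 6 had an adjusted p of 0.408.

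For 2 vs. 12 months the smallest p-values belonged to relatives of miR-145, which is known from smooth muscle. chr15_26933_mature, 1 edit from rno-miR-145-5p, had 778, 1161 and 1435 CPM at 2 months, 1855, 926 and 2202 CPM at 6 months and 14712, 1199 and 5281 CPM at 12 months. chr16_28046_mature, 3 edits from it, had 18.8, 32.7 and 36.0 CPM, then 39.7, 40.3 and 18.7 CPM, then 398, 39.9 and 74.2 CPM. Both were highest in 12-month replicate 1, the library with the highest muscle markers. The log2 changes were 2.65 ± 0.78 and 2.53 ± 0.78 (edgeR adjusted p = 0.899 for both) and 1.47 and 0.93 without that ram. chr7_15128_mature was lower at 12 months (-1.05 ± 0.41, edgeR adjusted p = 0.920).

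Genes of the piRNA pathway were read in the mRNA libraries. Of 26 genes 25 were listed, and edgeR called 0 of 25 in each comparison of ages, where 0% of 14921 mRNAs were called. At an unadjusted p of 0.05 it was 1, 0 and 0 of 25 in the comparisons as ordered above, where 4.07%, 6.87% and 2.67% of mRNAs passed, and DESeq2 called 0 of 25 in each. In 10 of the 25 the 2 lowest libraries were 2-month replicate 2 and 12-month replicate 3, as in 25.6% of all 14921 mRNAs, and in 4 of the 25 these were the 2 highest, as in 18% of all. GTSF1, a PIWI partner, had 296, 35.8 and 89.5 CPM at 2 months, 389, 510 and 318 CPM at 6 months and 230, 453 and 45.7 CPM at 12 months. PIWIL1, the PIWI protein of meiotic and round spermatid stages, had 291, 65.1 and 208 CPM, then 176, 262 and 263 CPM, then 151, 242 and 114 CPM. The 4 were PIWIL4, SPOCD1, TDRD12 and BTBD18. PIWIL4, which acts in early germ cells, had 4.60, 26.5 and 8.09 CPM, then 2.82, 1.77 and 4.74 CPM, then 2.61, 4.31 and 16.8 CPM. SPOCD1, which acts in piRNA-directed DNA methylation, had 14.2, 53.7 and 25.1 CPM, then 8.89, 5.42 and 17.6 CPM, then 6.58, 13.04 and 54.7 CPM.

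At the edge of the minimum, chr24_39563_star and chr11_20054_mature had a fifth-highest count of 10 and were members. Just outside, at a fifth-highest count of 9, lay chr20_35179_star and chrx_43094_mature, of which the latter had 3256 counts in 12-month replicate 1 and 1 to 33 in the other rams.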

How the data were processed

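The authors deposited whole-number counts per mature miRNA and per gene, without normalization. Per the paper's methods, small RNA was captured and treated with RNase III in an Ion kit, which may shorten molecules, and reads were mapped to sheep miRBase, then to the sheep genome Oar_v3.1 with miRDeep and then, with BWA, to human, rat and mouse miRBase. Per the submitters' notes the build was Oar_v3.1. Mapping of mRNA reads is not given in the sources used here.

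Members and lists were chosen with earlier results of these data known. Ages come from the labels, and a miRNA and an mRNA library of the same ram were joined by title. Counts of equal predicted sequences were added. Counts were scaled by upper quartile (mRNA by TMM), filtered by edgeR's filter by age and fitted with the quasi-likelihood test of edgeR 4.0.16 in R 4.3.3 on all 9 libraries, with Benjamini-Hochberg adjustment. The study's EB-Seq was not run. Of 424 members, 408 passed the filter. Log2 CPM used a prior count of 0.5. PRM1, PRM2, PRM3, ACR and TEKT1 were not used in the score, because no entry of the gene table carried these names. DESeq2 1.42.0, other scalings, no filter, a replicate block, thinning and leaving out rams were alternatives, of which thinning, leaving out 2-month replicate 2 and 12-month replicate 3 together, and scaling by totals alone were chosen after seeing the data. Fits were tested on simulated counts. Python 3.11.15, pandas 2.3.3, numpy 2.4.6, scipy 1.17.1, edlib 1.3.9.post1 and matplotlib 3.10.9 were used.

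Named members were the 10 of highest mean level, the 5 rising and 5 falling with the strongest fits, the 3 of smallest p per comparison, those at the edge of the minimum and hairpins with both strands; any further ones were picked with their values known. The level of 3 counts was 0.642 to 9.36 CPM over the libraries, which covers counting error only. Replicates are different rams, and the labels name no batch. Coordinates were not analysed here.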

Additional observations from a re-analysis of the deposited data

How the results depend on the processing

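In edgeR 0 members were called in each comparison of ages under every alternative run, while DESeq2 called 6 for 6 vs. 12 months; the smallest adjusted p over all miRNAs in the alternatives ran from 0.0853 to 0.785 there, apart from 0.00188 in DESeq2 and 1.25e-14 without a filter. Scaling by totals alone moved the median log2 change of all miRNAs from 0.13 to -0.42 for 2 vs. 12 months. Members past 2-fold over the spermatid score numbered 134 and were 66 when 10 counts were asked in all 9 libraries (fewer members), and 130 to 147 with 1 ram left out. Without a filter on low counts 96 were rising and 95 falling, with the log2 total beside the score 126 and 46; the cause was not tested. The first base was T in 25.5% by level, 25.6% with 10 counts in all 9 libraries and 37.2% with no minimum, against 31.6%, and 17 to 19 nt were 42.6% with no minimum against 67.5%.

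The difference in the members' share between 2 and 6 months, -1.52 percentage points, turned to 0.852 without 2-month replicate 1 (lowest -3.27). The difference in score between 2 and 12 months, 1.60, turned to -0.0838 without 2-month replicate 2 (highest 4.13). With 1 ram left out the share moved between -4.002 and -0.06 for 6 vs. 12 months. The replicate number as a block gave 0, 0 and 0 called members and 155 past 2-fold, and 0 called piRNA genes. Rams of the same number were different animals and their deviations correlated between -0.683 and 0.200, so they share only a number. In the shallowest library 3 counts were 9.36 CPM, which limits what low values of members under 50 CPM show.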
